A study of Saccharomyces cerevisiae with 10 samples.

Results

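A single high dose of hydrogen peroxide was given to a pool of haploid deletion strains of the budding yeast Saccharomyces cerevisiae, and the make-up of the treated pool was set against that of an untreated pool on 4 two-colour barcode arrays. Each strain lacks 1 gene that the cell can live without, and a pair of short tags, particular to the strain, stands in the place of that gene. Amplified tags of the whole pool were hybridized to an array, so that the brightness of a tag follows the abundance of its strain. All deletion strains measured on these 4 arrays are described. They are 4611 strains, 4147 with a gene symbol and 464 known only by their place on the array, and both tags were measured for 4478 of them. The series holds 10 arrays. The other 6 compare a pretreated pool with a pool given the high dose alone, and their values appear only beside the acute ones.

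For each array, a frozen aliquot of the pool was grown into a culture of its own and then divided. The acute portion received 0.4 mM hydrogen peroxide for 1 h and the untreated portion none, no portion was pretreated, and both then grew for 5 h in fresh rich medium before DNA was taken. DNA of the acute portion carried Cy5 and that of the untreated portion Cy3 on all 4 arrays, so an effect of the dye on a tag and an effect of the dose cannot be told apart. Strains with a log ratio below 0 had become rarer in the acute portion, relative to the typical strain of the pool. The ratio covers survival of the dose and growth in the hours after it, which cannot be told apart either. The deposited log ratios are read as natural logs. No source used here gives their base, and another base would rescale every log ratio and SE but no p. The overall direction of the ratio follows the order of a list that the study derived from the same arrays and was not tested separately.

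Hydrogen peroxide crosses membranes and oxidizes cysteines, iron-sulfur clusters, lipids and DNA. In budding yeast, a peroxidase sensor passes oxidation on to the transcription factor Yap1, which then stays in the nucleus. There, Yap1 with Skn7 switches on thioredoxins and peroxidases. Mitochondria are both a source and a target of reactive oxygen. Their own DNA encodes a handful of core subunits of the respiratory chain and the ATP synthase, and a dedicated ribosome, a set of tRNA synthetases and many message-specific factors, all encoded in the nucleus, are needed to make those subunits. Strains that lack such factors mostly cannot respire but can live by fermentation, so that their deletions can be kept in the pool.

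The mean log ratio of each strain over the 4 arrays was compared with 0 by limma, which borrows strength for the spread from all strains, in a two-sided test with the study's threshold of 0.005 on the unadjusted p. An exact test that flips the signs of 4 arrays cannot give a p under 0.125, so the adjusted p of limma is printed for single strains. Strains past the threshold are called lost when the mean was below 0 and gained when it was above 0. Of the 4611 strains, 123 (2.67%) were lost and 43 (0.933%) were gained. Together these are 3.6% of the strains. A calibrated test would let 11.5 unaffected strains through on either side. After Benjamini-Hochberg adjustment over all strains, 3 strains had an adjusted p under 0.05, and all 3 were lost. Lost strains had means from −1.64 to −0.36 with a median of −0.71, and gained strains from 0.35 to 1.09 with a median of 0.58. All 123 lost strains were below 0 on each of the 4 arrays and all 43 gained strains above it, and 499 and 423 of all strains were so. A call by the mean of the same 4 arrays favours values of 1 sign. The typical strain had an SD between arrays of 0.225. Where a mean is followed by ±, the error is the SE over the arrays from limma.

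The arrays differed in how they resembled each other. Across all strains, the correlation was 0.53 between replicates 2 and 4, 0.25 between replicates 1 and 3, 0.19 between replicates 3 and 4, and between −0.05 and −0.01 for the other pairs. With the first tag alone it was 0.70 between replicates 2 and 4, −0.28 between replicates 1 and 2 and −0.44 between replicates 1 and 4. The second tag gave 0.37 between replicates 1 and 4 and −0.29 between replicates 2 and 3. Since the labels state the same dyes on every array, the direction was kept. Among strains with both tags, the tags had means of the same sign in 2631 of 4478 (58.8%), in 120 of the 120 lost strains and in 42 of the 42 gained strains that have both. All 8 tag values lay on one side of 0 in 104 lost and 35 gained strains, and in 286 (6.39%) of all strains with both tags. Agreement of the tags is favoured by the test, which selects strains by the mean of both. In 286 strains the first tag was below −1 on both replicates 2 and 4, with medians of 0.87, −1.53, 0.15 and −1.95 on replicates 1 to 4, while the mean of their second tag had a median of −0.01. Of these, 17 were among the lost strains and none among the gained. In 435 strains the second tag was above 1 on replicate 2, with medians of −0.21, −0.37 and −0.01 on replicates 1, 3 and 4, and 13 of these were among the gained strains and none among the lost. The part of either pattern in the calls was not tested.

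**Figure D1:**
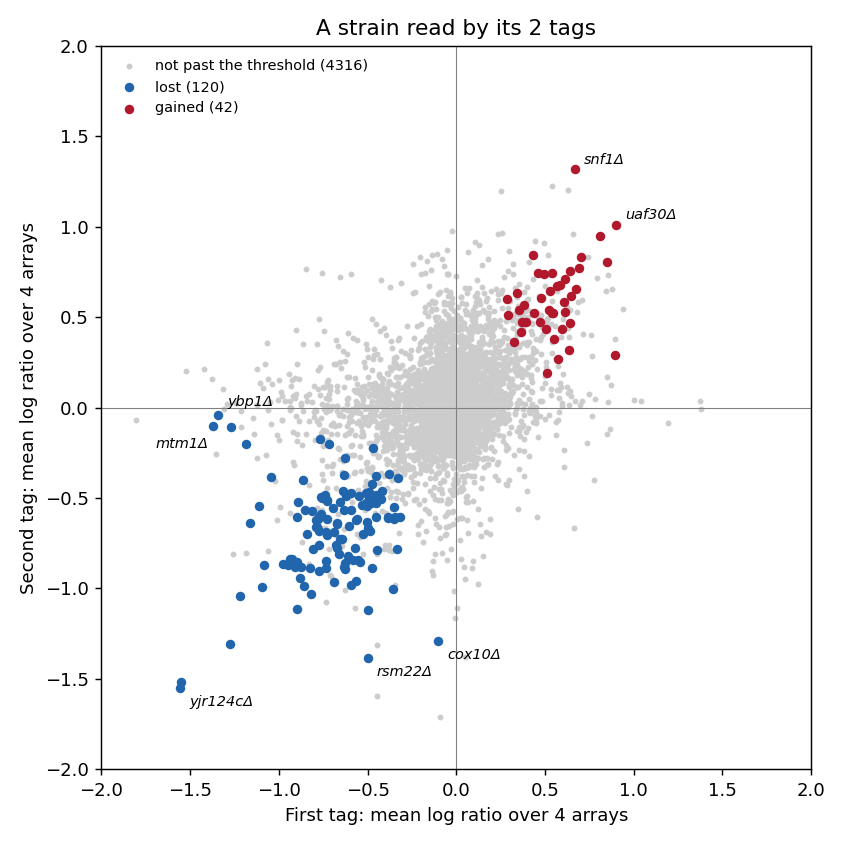
Mean log ratio of the first tag (horizontal axis) against that of the second tag (vertical axis), each over 4 arrays, for the 4478 strains with both tags. Blue points are lost, red points gained and grey points not past the threshold. The 120 lost strains lie below 0 on both axes and the 42 gained strains above 0 on both, with mtm1Δ, ybp1Δ and cox10Δ close to an axis, read mainly by 1 tag.

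Leaving out 1 array at a time lowered the count of lost strains each time. Without replicates 1, 2, 3 and 4, 83, 86, 78 and 66 strains were lost and 42, 20, 14 and 13 were gained. Of the 123 lost strains, 41 stayed past the threshold in all 4 of these fits and 18 in none, and of the 43 gained strains 6 and 11. The 20 lost strains of lowest p all stayed past it each time, as did 5 of the 12 gained strains of lowest p that have a gene symbol. In the lost strains, replicate 4 held the value nearest 0 in 66 of 123 and the array medians were −0.80, −0.60, −0.83 and −0.53 on replicates 1 to 4. In the gained strains they were 0.42, 0.50, 0.67 and 0.69.

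**Figure D2:**
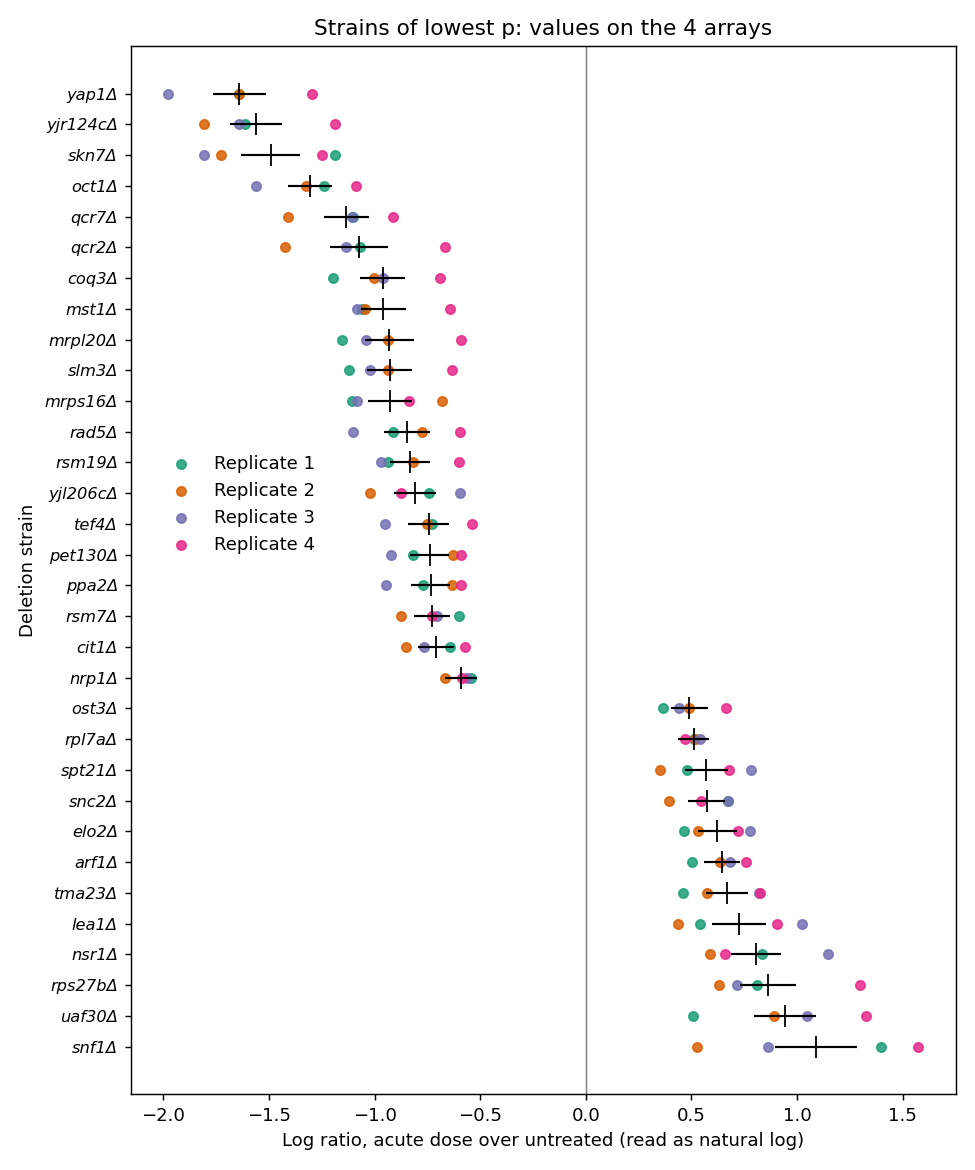
Log ratio of acute dose over untreated (horizontal axis) on each of the 4 arrays for the 20 lost and 12 gained strains of lowest p that have a gene symbol. Coloured points are replicates 1 to 4, and black bars give the mean ± SE from limma. The lost strains reach from yap1Δ at −1.64 to nrp1Δ at −0.59 and the gained strains from ost3Δ at 0.49 to snf1Δ at 1.09, with replicate 4 nearest 0 in many of the lost strains.

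The regulators of the peroxide response gave 2 of the 3 lowest means of the pool. The yap1Δ strain, which lacks the main peroxide-responsive transcription factor and was read by its first tag alone, had log ratios of −1.64, −1.64, −1.98 and −1.30 on replicates 1 to 4 (mean −1.64, SE 0.13, limma adjusted p = 0.0446). It was the lowest strain of all 4611. For skn7Δ, without the partner factor of Yap1, the values were −1.19, −1.73, −1.81 and −1.25 (mean −1.49, SE 0.14, limma adjusted p = 0.0635), and its first and second tags gave −1.55 and −1.52. Both strains were far below 0 on every array.

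The ybp1Δ strain lacks a protein that binds Yap1 and helps its oxidation by the peroxidase sensor. Its values were −0.71, −0.55, −1.15 and −0.48 (mean −0.72, SE 0.13, limma adjusted p = 0.0995), but the first tag had a mean of −1.34 and the second of −0.04, so its loss rests on 1 tag. For whi2Δ, which lacks an activator of the general stress response, they were −0.41, −0.48, −0.50 and −0.39 (mean −0.44, SE 0.08, limma adjusted p = 0.0993). These were the 4 lost strains among 17 deletions of peroxide and stress regulators (median −0.07, range −1.64 to 0.08), and none was gained. With 1 array left out, 2 to 3 of the 17 were lost, yap1Δ and skn7Δ each time, while ybp1Δ and whi2Δ each lost the call in 3 of the 4 fits. Of the hypoxic and lipid regulators, mga2Δ had −1.03, 0.09, 0.31 and −0.03 (mean −0.16, SE 0.23, limma adjusted p = 0.907). The rox1Δ strain had −0.18, −0.07, −0.01 and 0.04 (mean −0.06, SE 0.08, limma adjusted p = 0.912). The mga2Δ values were thus low on replicate 1 alone, and no strain among 8 deletions of such regulators was called.

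Deletions of the enzymes that remove peroxide and superoxide were, as single strains, mostly near 0. Over all 4611 strains, 2.67% were lost, 0.933% were gained and 319 were below 0 at an unadjusted p under 0.05. None of 36 strains without a superoxide dismutase, catalase, peroxidase, thioredoxin, glutathione or glutaredoxin enzyme was past the threshold. At those shares, few calls would arise among 36 strains. The median of the 36 was −0.04, and 3 were below 0 at an unadjusted p under 0.05. The lowest was hyr1Δ, which lacks the peroxidase that senses peroxide for Yap1, with −1.43, −0.25, −1.79 and −0.70 (mean −1.04, SE 0.27, limma adjusted p = 0.187). Its arrays spread from −0.25 to −1.79, all below 0. For ctt1Δ, without the cytosolic catalase, the values were −0.24, −0.27, −0.07 and −0.34 (mean −0.23, SE 0.09, limma adjusted p = 0.356). The ccp1Δ strain, without mitochondrial cytochrome c peroxidase, had 0.33, −0.35, −0.94 and −0.89 (mean −0.46, SE 0.23, limma adjusted p = 0.558). The tsa1Δ, sod1Δ, sod2Δ, glr1Δ and gsh1Δ strains had means of 0.00, −0.09, 0.06, 0.00 and −0.04, with SEs of 0.12, 0.12, 0.18, 0.08 and 0.08. A miss of the threshold on 4 arrays does not show that a strain grew like the pool.

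Mitochondrial functions accounted for 66 of the 123 lost strains. The 21 lists of mitochondrial functions hold 354 measured strains, of which 18.6% were lost and 1 was gained, and 280 had a mean below 0. Of all 4611 strains, 2.67% were lost, 0.933% were gained and 2528 had a mean below 0. Those shares are also the background of each list count that follows. The median of the 354 strains was −0.25, against −0.01 over all strains. On replicates 1 to 4 the median of these strains was −0.30, −0.22, −0.24 and −0.23, below 0 on every array, while quantile normalization set the median of all strains to −0.01 on each. With 1 array left out, 37 to 49 of them were lost.

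**Figure D3:**
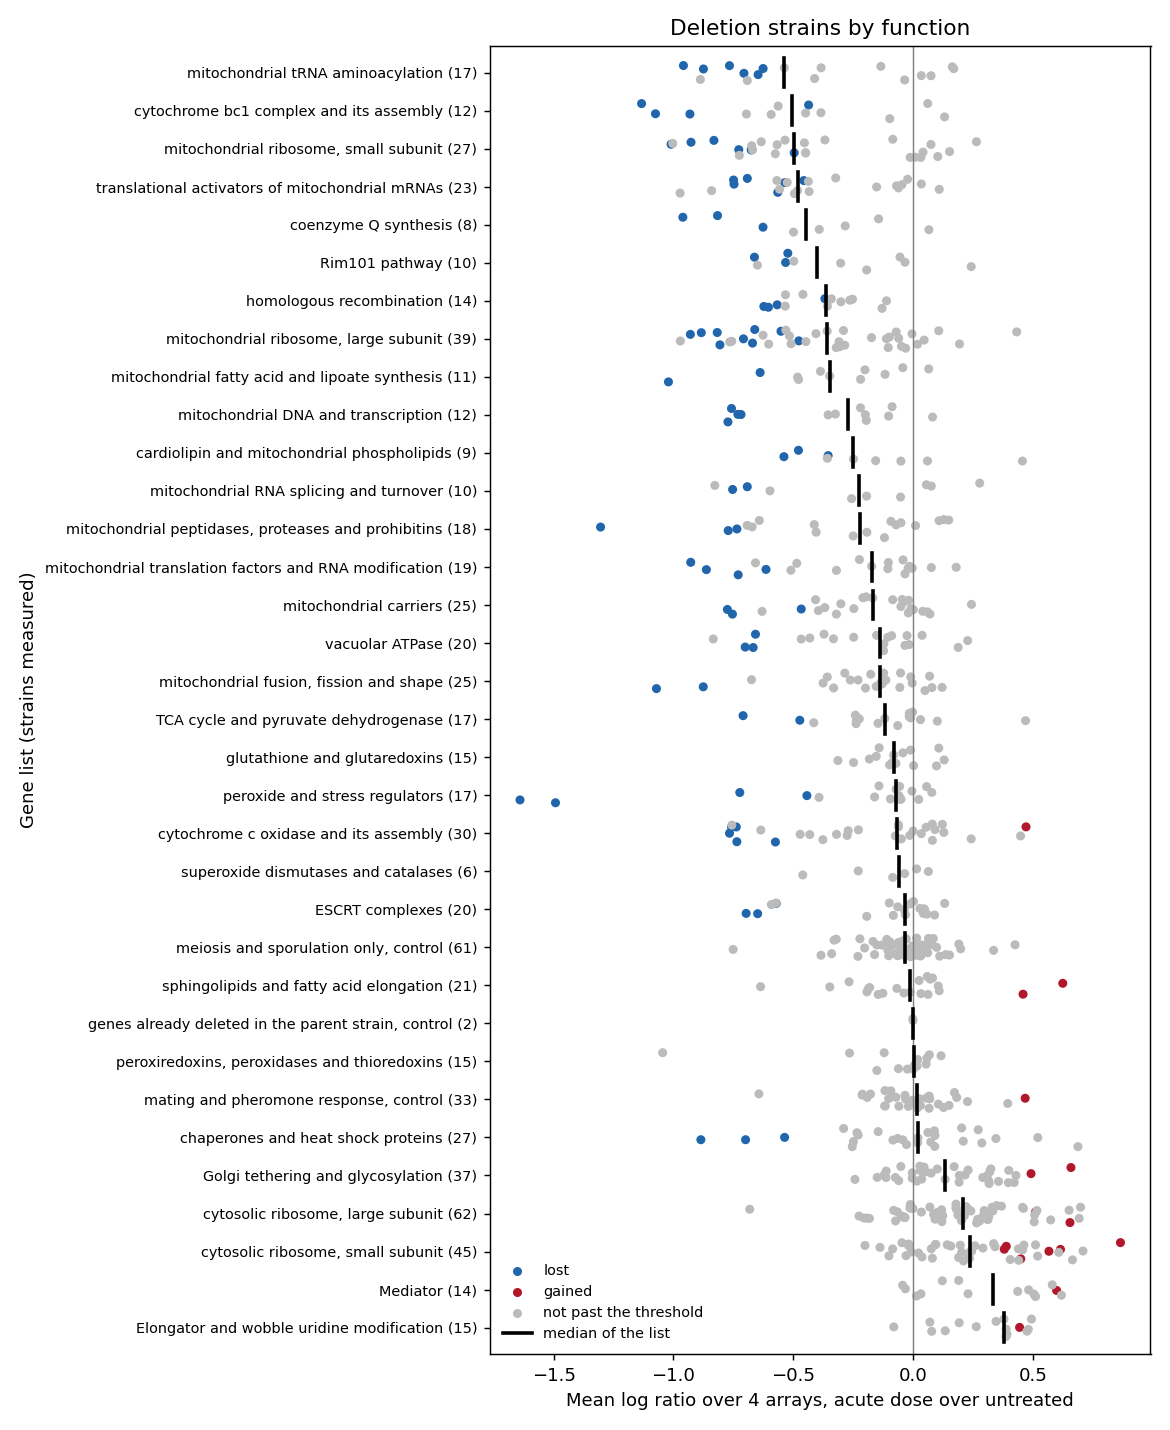
Mean log ratio of acute dose over untreated for each deletion strain (points), in the lists with 2 or more called strains, in the lists of antioxidant enzymes, Mediator and Elongator, and in 3 control lists. Each row is a list with its number of measured strains, the black line is its median, and blue and red points are lost and gained strains. Lists of mitochondrial gene expression and the bc1 complex lie at the top with medians down to −0.54, and the cytosolic ribosome, Mediator and Elongator at the bottom with medians up to 0.38.

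The machinery that expresses the mitochondrial genome stood out in size. Over its 7 lists, 37 of 147 strains were lost and none was gained, with a median of −0.43 (22 to 29 lost with 1 array left out). Of 66 deletions of mitochondrial ribosomal proteins, 15 were lost, 9 of 39 in the large subunit and 6 of 27 in the small one. With 1 array left out, 8 to 12 of the 66 were lost, 4 to 7 of them in the large subunit and 4 to 7 in the small one. Medians of the small subunit were −0.51, −0.50, −0.34 and −0.29 on replicates 1 to 4 and those of the large subunit −0.52, −0.14, −0.40 and −0.36. The mrps16Δ strain had −1.11, −0.68, −1.08 and −0.84 (mean −0.93, SE 0.11, limma adjusted p = 0.0761). The rsm19Δ strain had −0.94, −0.82, −0.97 and −0.60 (mean −0.83, SE 0.10, limma adjusted p = 0.0761). Both lack small-subunit proteins, and both tags of each gave the loss, at −0.88 and −0.94 for mrps16Δ and −0.81 and −0.78 for rsm19Δ. Of the large subunit, mrpl20Δ had −1.15, −0.94, −1.04 and −0.59 (mean −0.93, SE 0.12, limma adjusted p = 0.0761). The other 12 lost strains of the ribosome ranged from rsm22Δ at −1.01 ± 0.15, with the second tag at −1.39 and the first at −0.50, to mrpl17Δ at −0.48 ± 0.09. They included mrpl4Δ, read mainly by its first tag (−1.27, with the second at −0.11). Members were far from uniform, and 12 of the 66 had means above 0, up to 0.43.

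The loading of mitochondrial tRNAs with amino acids had a median of −0.54, lowest among the 70 lists when both tags were averaged, with 6 of 17 strains lost (5 to 7 with 1 array left out). The mst1Δ strain lacks the threonyl-tRNA synthetase and had −1.06, −1.05, −1.08 and −0.64 (mean −0.96, SE 0.11, limma adjusted p = 0.0761). The msk1Δ strain, without the lysyl-tRNA synthetase, had −0.75, −0.82, −1.28 and −0.65 (mean −0.88, SE 0.13, limma adjusted p = 0.0782). Lost with them were msm1Δ, without the methionyl enzyme, and the strains of all 3 subunits of the amidotransferase that makes glutaminyl-tRNA in mitochondria. For her2Δ, gtf1Δ and pet112Δ, these 3 subunits, the means were −0.71 ± 0.10, −0.77 ± 0.12 and −0.65 ± 0.10 (SE), with limma adjusted p of 0.0782, 0.0807 and 0.0883 and every array below 0. The ranges of the 3 strains overlapped. By tag, the list had a median of −0.61 with the first and −0.26 with the second, on which the small ribosomal subunit (−0.52) and the translational activators (−0.50) were lower.

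Strains without enzymes that modify mitochondrial tRNA or recycle its ribosome were also among the lost. The slm3Δ strain lacks the enzyme that adds sulfur to mitochondrial tRNA wobble bases and had −1.12, −0.94, −1.02 and −0.63 (mean −0.93, SE 0.11, limma adjusted p = 0.0761). The rmd9Δ strain, without a protein that stabilizes mitochondrial messages, had −0.99, −1.18, −0.73 and −0.55 (mean −0.86, SE 0.13, limma adjusted p = 0.0782). The rrf1Δ strain lacks the recycling factor and had a mean of −0.73 ± 0.14, with its first tag at −1.19 and its second at −0.20. The fourth was gep3Δ, of a GTPase of the small subunit, at −0.61 ± 0.13. In this list, 4 of 19 strains were lost (2 to 4 with 1 array left out), and the median was −0.17.

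Factors that act on single mitochondrial messages followed the same course. Of 23 deletions, 6 were lost (2 to 3 with 1 array left out), none was gained and 21 had means below 0 (median −0.48, range −0.97 to 0.11). The cbp1Δ strain, whose protein protects the message of cytochrome b, had −1.001, −0.50, −0.83 and −0.67 (mean −0.75, SE 0.11, limma adjusted p = 0.0782). The cbt1Δ strain, which acts on the same message, had −0.87, −0.49, −0.49 and −0.41 (mean −0.57, SE 0.11, limma adjusted p = 0.1). For pet309Δ, which translates the message of the largest oxidase subunit, the values were −0.56, −0.68, −0.63 and −0.27 (mean −0.54, SE 0.10, limma adjusted p = 0.0995). The aep1Δ and aep3Δ strains, whose proteins serve messages of the ATP synthase, had means of −0.46 ± 0.09 and −0.75 ± 0.14, and qri5Δ, which acts on the oxidase message, −0.69 ± 0.14. Lost strains of this list therefore covered messages of the bc1 complex, the oxidase and the ATP synthase.

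Copying and transcription of mitochondrial DNA had 4 lost strains of 12 (3 of 12 in each fit with 1 array left out), and a median of −0.27. The rpo41Δ strain, without the mitochondrial RNA polymerase, had −0.69, −0.65, −1.05 and −0.49 (mean −0.72, SE 0.11, limma adjusted p = 0.0841). The mtf1Δ strain, without its initiation factor, had −0.68, −0.75, −1.15 and −0.52 (mean −0.77, SE 0.12, limma adjusted p = 0.0843). These partners differed by less than their SEs. The other pair, mgm101Δ and mhr1Δ, lacks proteins that recombine mitochondrial DNA, with means of −0.76 ± 0.11 and −0.73 ± 0.15. For RNA, mss116Δ, without a splicing helicase, and dss1Δ, without the exonuclease of the mitochondrial degradosome, had means of −0.75 ± 0.12 and −0.69 ± 0.11.

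In the respiratory chain, the lost strains were mostly those of the bc1 complex, coenzyme Q and the assembly of the oxidase. The bc1 complex passes electrons from coenzyme Q to cytochrome c, and 4 of its 12 strains were lost (2 to 5 with 1 array left out; median −0.51). The qcr7Δ strain had −1.10, −1.41, −1.11 and −0.91 (mean −1.13, SE 0.11, limma adjusted p = 0.0635), the fourth lowest p of the pool, and qcr2Δ −1.07, −1.43, −1.14 and −0.67 (mean −1.07, SE 0.14, limma adjusted p = 0.0761). Lost too were bcs1Δ, whose protein inserts the Rieske subunit, at −0.93 ± 0.16, and fmp25Δ, an assembly factor, at −0.44 ± 0.08. Below 0 but not past the threshold were qcr8Δ, cyt1Δ, qcr9Δ and qcr6Δ, with means of −0.70, −0.56, −0.45 and −0.59, and rip1Δ, without the Rieske subunit itself, had −0.10.

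Coenzyme Q is the lipid that carries electrons to that complex. Of 8 strains, 3 were lost (1 to 2 with 1 array left out; median −0.45). The coq3Δ strain, without a methyltransferase of the pathway, had −1.20, −1.001, −0.96 and −0.69 (mean −0.96, SE 0.11, limma adjusted p = 0.0761). The coq2Δ strain lacks the enzyme that joins the head group to its tail and had −1.15, −0.83, −0.83 and −0.47 (mean −0.82, SE 0.13, limma adjusted p = 0.0807), and coq5Δ, without another methyltransferase, had a mean of −0.63 ± 0.11. Of the others, coq1Δ had a mean of −0.50, coq9Δ −0.39 and coq4Δ −0.14.

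The oxidase passes the electrons on to oxygen. Of its 30 strains, 5 were lost and 1 was gained, and the median was −0.07 (1 to 4 lost with 1 array left out). The 5 lost strains all lack assembly factors: cox15Δ and cox10Δ the enzymes that make heme A, cox11Δ and sco1Δ the proteins that deliver copper, and cox20Δ a chaperone of the second subunit. Their means were −0.77 ± 0.12, −0.74 ± 0.14, −0.57 ± 0.10, −0.74 ± 0.14 and −0.76 ± 0.15. The cox10Δ loss came from the second tag (−1.29), with the first at −0.10. The gained strain was cox5bΔ, which lacks the form of subunit 5 used in low oxygen, with 0.32, 0.51, 0.60 and 0.45 (mean 0.47, SE 0.09, limma adjusted p = 0.0995). The form used in air, COX5A, gave 0.41, −0.03, 0.02 and −0.45 in its own deletion (mean −0.01, SE 0.15, limma adjusted p = 0.989), with replicates on both sides of 0. Structural subunits such as COX6, COX7, COX8 and COX9 had means of −0.27, −0.47, 0.08 and 0.45 in their deletions, none past the threshold.

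Of 17 ATP synthase strains, atp23Δ alone was lost (−0.46 ± 0.10), without the protease that matures a membrane subunit, and the median was −0.16. With 1 array left out, 0 to 1 of the 17 were lost, and atp23Δ was past the threshold in none of the 4 fits. The TCA cycle and pyruvate dehydrogenase had 2 lost strains of 17 (1 to 2 with 1 array left out; median −0.12). Of these, cit1Δ, without mitochondrial citrate synthase, had −0.64, −0.85, −0.77 and −0.57 (mean −0.71, SE 0.09, limma adjusted p = 0.0761). The lpd1Δ strain, without the lipoamide dehydrogenase shared by several complexes, had −0.30, −0.51, −0.61 and −0.48 (mean −0.47, SE 0.09, limma adjusted p = 0.0995). Deletions of succinate and NADH dehydrogenases, the entry points of electrons, gave a median of 0.07 over 9 strains, with none called.

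The lowest p of a mitochondrial strain belonged to oct1Δ, without the peptidase that trims an octapeptide from imported proteins, with −1.24, −1.33, −1.56 and −1.09 (mean −1.30, SE 0.10, limma adjusted p = 0.0446). Its tags gave −1.27 and −1.31. Lost as well were imp2Δ of the inner membrane peptidase at −0.74 ± 0.11 (first tag only) and yta12Δ of the matrix AAA protease at −0.77 ± 0.14, so that 3 of 18 strains of this list were lost (median −0.22).

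Among carriers, 3 of 25 were lost (median −0.17). The ggc1Δ strain, without the GTP/GDP carrier, had −1.02, −0.57, −0.91 and −0.51 (mean −0.75, SE 0.12, limma adjusted p = 0.0841). The mrs4Δ strain, without an iron carrier, had −0.46, −0.67, −0.45 and −0.28 (mean −0.47, SE 0.09, limma adjusted p = 0.116). The mtm1Δ strain, without another protein of the carrier family, had −0.83, −0.70, −1.03 and −0.54 (mean −0.78, SE 0.11, limma adjusted p = 0.0782), with its first tag at −1.37 and its second at −0.10. Fusion of mitochondria and their contact with the endoplasmic reticulum were represented by mgm1Δ, without the inner membrane dynamin (−1.07 ± 0.21), and gem1Δ, without a GTPase of the contact site (−0.88 ± 0.16, first tag only). In this list, 0 to 2 strains were lost with 1 array left out. For mgm1Δ the arrays fell into a low pair and a higher one, at −1.53, −0.63, −1.53 and −0.60.

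Lost strains of mitochondrial lipid synthesis came from phospholipids and fatty acids alike. Cardiolipin and its relatives had 3 lost strains of 9 (0 to 1 with 1 array left out): ups1Δ, which moves phosphatidic acid between the membranes, gep4Δ, of the cardiolipin pathway, and psd1Δ, which makes phosphatidylethanolamine, at −0.54 ± 0.09, −0.48 ± 0.10 and −0.36 ± 0.08. In the mitochondrial fatty acid pathway, which supplies lipoic acid, htd2Δ, without a dehydratase, had −1.45, −1.07, −0.83 and −0.73 (mean −1.02, SE 0.14, limma adjusted p = 0.0776). The hfa1Δ strain, without the carboxylase of the first step, had −0.97, −0.47, −0.77 and −0.35 (mean −0.64, SE 0.13, limma adjusted p = 0.112). This pathway had 1 lost strain of 11 in each fit with 1 array left out. Iron-sulfur cluster assembly had low but scattered strains, none past the threshold. The iba57Δ strain, whose protein serves a class of iron-sulfur enzymes, had −1.81, −1.60, −0.52 and −0.49 (mean −1.10, SE 0.27, limma adjusted p = 0.172), low on replicates 1 and 2. The ssq1Δ strain, without the Hsp70 of cluster transfer, had −1.98, −1.01, 0.07 and −0.45 (mean −0.84, SE 0.33, limma adjusted p = 0.388).

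Outside the lists, 6 lost strains that lack proteins of mitochondria or of respiratory growth were picked out after their values were seen. This group may not be complete. The ppa2Δ strain, without the mitochondrial pyrophosphatase, had −0.77, −0.64, −0.95 and −0.59 (mean −0.74, SE 0.09, limma adjusted p = 0.0761). The pet130Δ strain, named for its failure to respire, had −0.82, −0.63, −0.92 and −0.59 (mean −0.74, SE 0.09, limma adjusted p = 0.0761). With rrg7Δ and rrg9Δ, known for defects in respiratory growth, gep5Δ, needed to keep the mitochondrial genome, and adh3Δ, without mitochondrial alcohol dehydrogenase, the means were −0.97 ± 0.13, −0.78 ± 0.13, −0.71 ± 0.12 and −0.48 ± 0.09.

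The Rim101 pathway, which reports alkaline pH and membrane stress, gave a further set of lost strains. In it, the arrestin-like Rim8 and the scaffold Rim20 recruit ESCRT proteins of the endosome, on which the transcription factor Rim101 is cut. Of 10 strains, 3 were lost (0 to 1 with 1 array left out; median −0.40). The rim8Δ strain had −0.44, −0.76, −0.96 and −0.49 (mean −0.66, SE 0.12, limma adjusted p = 0.0995). The rim20Δ strain had −0.66, −0.44, −0.67 and −0.36 (mean −0.53, SE 0.09, limma adjusted p = 0.0995). The rim101Δ strain had −0.61, −0.41, −0.72 and −0.36 (mean −0.52, SE 0.10, limma adjusted p = 0.0995). In rim13Δ, without the protease of the pathway, the mean was −0.50 ± 0.19 (limma adjusted p = 0.383), and in nrg1Δ, without a repressor that Rim101 holds down, 0.24 ± 0.09, on the other side of 0.

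ESCRT complexes bend endosomal membranes inward, and 5 of their 20 strains had means from −0.70 to −0.57. The lost strains were vps36Δ of ESCRT-II with −0.62, −0.54, −0.63 and −0.49 (mean −0.57, SE 0.08, limma adjusted p = 0.0776), stp22Δ of ESCRT-I with −0.60, −0.83, −0.73 and −0.44 (mean −0.65, SE 0.10, limma adjusted p = 0.0786) and vps20Δ of ESCRT-III with −0.61, −0.74, −0.98 and −0.45 (mean −0.70, SE 0.11, limma adjusted p = 0.0841). Means of snf7Δ and vps25Δ, subunits of ESCRT-III and ESCRT-II, were −0.57 and −0.59, not past the threshold. The other 15 of the 20 strains lay between −0.19 and 0.13, among them vps28Δ at 0.04, snf8Δ at 0.09, vps4Δ at −0.07 and bro1Δ at −0.01. Strains of retromer and of vacuole tethering, the neighbouring routes, had no call among 19 and 22 and medians of −0.05 and −0.03.

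The vacuolar ATPase acidifies the vacuole. Of its 20 strains, 3 were lost (1 to 2 with 1 array left out; median −0.14, range −0.83 to 0.23). They were pkr1Δ and vph2Δ, which lack assembly factors of the endoplasmic reticulum, and vma3Δ, which lacks the proteolipid of the membrane ring. The values were −0.50, −0.89, −0.81 and −0.60 for pkr1Δ (mean −0.70, SE 0.10, limma adjusted p = 0.0782), −1.08, −0.53, −0.59 and −0.42 for vma3Δ (mean −0.66, SE 0.13, limma adjusted p = 0.112) and −0.88, −0.82, −0.18 and −0.80 for vph2Δ (mean −0.67, SE 0.14, limma adjusted p = 0.127). The vph1Δ strain, without the vacuolar form of the membrane arm, was lower still but not past the threshold, with −0.96, −0.67, −1.43 and −0.28 (mean −0.83, SE 0.19, limma adjusted p = 0.154).

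Deletions of homologous recombination, which repairs broken chromosomes from an intact copy, all had means below 0, in 14 of 14 strains (median −0.36, range −0.62 to −0.11). List medians on replicates 1 to 4 were −0.40, −0.39, −0.42 and −0.30. Of the 14, 4 were lost. The rad59Δ strain, of a protein that anneals strands, had −0.78, −0.56, −0.66 and −0.42 (mean −0.60, SE 0.09, limma adjusted p = 0.0807). The rad57Δ strain, of another recombination protein, had −0.71, −0.46, −0.88 and −0.44 (mean −0.62, SE 0.11, limma adjusted p = 0.0995). The rad54Δ strain, of the translocase, had −0.88, −0.58, −0.53 and −0.28 (mean −0.57, SE 0.12, limma adjusted p = 0.121). The shu1Δ strain, of the Shu complex, had −0.47, −0.28, −0.40 and −0.33 (mean −0.37, SE 0.08, limma adjusted p = 0.136). With 1 array left out, 1 to 2 of the 14 were lost. Means of rad52Δ, rad55Δ, rad50Δ and mre11Δ were −0.36, −0.53, −0.26 and −0.11, not past the threshold.

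Other repair routes had single lost strains or none. The rad5Δ strain, without the ligase and helicase of error-free damage bypass, had −0.91, −0.78, −1.10 and −0.60 (mean −0.85, SE 0.11, limma adjusted p = 0.0761). The mus81Δ strain, without a nuclease that cuts recombination intermediates, had −0.45, −0.32, −0.37 and −0.38 (mean −0.38, SE 0.08, limma adjusted p = 0.114). The top1Δ strain, without topoisomerase I and named after its values were seen, had −1.04, −0.40, −0.69 and −0.54 (mean −0.67, SE 0.13, limma adjusted p = 0.0995). Base excision repair, the route for oxidized bases, had no call among 8 strains (median −0.10), with apn2Δ at −0.30 ± 0.08 and ung1Δ at −0.24 ± 0.10. The 22 checkpoint strains had a median of 0.05 and none was called. In nucleotide excision repair, rad2Δ was gained at 0.35 ± 0.08, the gained strain nearest the threshold.

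The strain next to yap1Δ in p was yjr124cΔ, whose gene codes for a putative membrane protein of unknown function. Its values were −1.61, −1.81, −1.64 and −1.19 (mean −1.56, SE 0.12, limma adjusted p = 0.0446), and its tags gave −1.55 and −1.55. Another gene of unknown function, YJL206C, had −0.74, −1.02, −0.59 and −0.88 in its deletion (mean −0.81, SE 0.10, limma adjusted p = 0.0761). All 4 arrays of both strains were below 0. Further lost strains with a symbol and in no list were named after their values were seen. They were pkh2Δ, of a kinase in sphingolipid signalling, at −0.94 ± 0.12, htb2Δ, of a copy of histone H2B, at −0.91 ± 0.12, eug1Δ, of a disulfide isomerase of the endoplasmic reticulum, at −0.83 ± 0.12, pry1Δ at −0.72 ± 0.15, avl9Δ at −0.53 ± 0.12, pun1Δ at −0.50 ± 0.11 and bsc1Δ at −0.46 ± 0.08. With them stood 3 deletions known by locus only, YDR042C, YMR084W and YJL027C, at −0.97 ± 0.17, −0.67 ± 0.12 and −0.63 ± 0.13. The 7 lost strains without a symbol ranged from −0.87 to −0.48.

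Single members of the stress and storage programmes were lost while their lists were centred near 0. Of 27 chaperone strains (median 0.02, range −0.89 to 0.69), 3 were lost and none was gained. At an unadjusted p under 0.05, 6 were below 0 and 3 above. The ssa4Δ strain, without a heat-induced Hsp70, had −0.51, −0.77, −1.01 and −0.51 (mean −0.70, SE 0.11, limma adjusted p = 0.091). The hsp12Δ strain, without a small membrane-binding stress protein, had −0.75, −0.57, −1.49 and −0.73 (mean −0.89, SE 0.17, limma adjusted p = 0.103). The hsp104Δ strain, without the disaggregase, had −0.34, −0.50, −0.88 and −0.43 (mean −0.54, SE 0.11, limma adjusted p = 0.127). All 3 genes are known for strong induction by stress, and whether this bears on their loss was not tested. With 1 array left out, 1 to 2 of the 27 were lost, and hsp104Δ was past the threshold in none of the 4 fits. The gph1Δ strain, without glycogen phosphorylase, had −0.63, −0.51, −0.79 and −0.40 (mean −0.58, SE 0.10, limma adjusted p = 0.091). The dcs1Δ strain, without a scavenger of mRNA caps, had −0.57, −0.53, −0.58 and −0.63 (mean −0.58, SE 0.08, limma adjusted p = 0.0761). In translation, tef4Δ, without a form of the elongation factor 1B gamma subunit, had −0.73, −0.75, −0.95 and −0.54 (mean −0.74, SE 0.10, limma adjusted p = 0.0761). The nrp1Δ strain, without a putative RNA-binding protein, had −0.54, −0.67, −0.56 and −0.59 (mean −0.59, SE 0.08, limma adjusted p = 0.0761). Lost as single members of their lists were also hda2Δ of a histone deacetylase (−0.58 ± 0.11), erg2Δ of ergosterol synthesis (−0.53 ± 0.11), slm4Δ of the vacuolar complex that signals to TORC1 (−0.49 ± 0.09) and mdj1Δ, a mitochondrial co-chaperone (−0.78 ± 0.14).

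Cytosolic ribosomal proteins form the list with the most gained strains. Of 107 deletions of cytosolic ribosomal proteins, 8 were gained (7.48%) and none was lost, and 82 had means above 0, with a median of 0.22. Over all 4611 strains, 0.933% were gained, 2.67% were lost and 2528 had means below 0. With replicates 1, 2, 3 and 4 left out in turn, 11, 2, 3 and 2 of the 107 were gained. List medians were 0.15, 0.23, 0.36 and 0.30 on replicates 1 to 4 for the small subunit and 0.10, 0.17, 0.33 and 0.24 for the large one. Mitochondrial and cytosolic ribosomes thus lay on opposite sides of 0 on all 4 arrays.

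Most yeast ribosomal proteins are made from a pair of nearly identical genes, and each deletion removes 1 of them. The rps27bΔ strain had 0.81, 0.63, 0.72 and 1.30 (mean 0.86, SE 0.13, limma adjusted p = 0.0807), while rps27aΔ had 0.15, 0.19, 0.19 and 0.10 (mean 0.16, SE 0.08, limma adjusted p = 0.528). For the pair that encodes Rps18, both strains were gained, rps18aΔ at 0.39 ± 0.08 and rps18bΔ, read by its first tag alone, at 0.57 ± 0.10. Of the Rps21 pair, rps21bΔ was gained at 0.38 ± 0.08, and rps21aΔ had 0.44 ± 0.14, not past the threshold. The rpl7aΔ strain had 0.51, 0.52, 0.54 and 0.47 (mean 0.51, SE 0.07, limma adjusted p = 0.0782) and its partner rpl7bΔ 0.93, −0.60, −0.03 and −1.20 (mean −0.23, SE 0.34, limma adjusted p = 0.915). The last strain was above 0 on replicate 1 and below it on the others. The tags of rpl7aΔ disagreed on single arrays, the first at −0.11, 1.46, 0.33 and 0.71 and the second at 1.06, 0.06, 0.61 and 0.01. The close array values of rpl7aΔ are averages of these tags, and its call ended with either tag alone. Also gained were asc1Δ, without the signalling protein on the small subunit, rps7aΔ and rpl40bΔ, at 0.45 ± 0.08, 0.61 ± 0.13 and 0.65 ± 0.14.

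A further 8 gained strains lack factors that make ribosomes, and this group was formed after its values were seen. The uaf30Δ strain, without a subunit of the factor that selects RNA polymerase I for ribosomal DNA, had 0.51, 0.89, 1.05 and 1.33 (mean 0.94, SE 0.15, limma adjusted p = 0.0807). The nsr1Δ strain, without yeast nucleolin, had 0.83, 0.59, 1.15 and 0.66 (mean 0.81, SE 0.12, limma adjusted p = 0.0782). The tma23Δ strain, without a nucleolar assembly protein, had 0.46, 0.57, 0.82 and 0.82 (mean 0.67, SE 0.10, limma adjusted p = 0.0793). The helicase strains dbp3Δ and dbp7Δ had means of 0.47 ± 0.09 and 0.60 ± 0.13, and fyv7Δ and tsr3Δ, which act on the small-subunit rRNA, and pih1Δ, which helps to assemble snoRNA particles, had 0.50 ± 0.10, 0.47 ± 0.10 and 0.49 ± 0.10. Splicing was represented by lea1Δ of the U2 particle with 0.54, 0.44, 1.02 and 0.91 (mean 0.73, SE 0.13, limma adjusted p = 0.0995) and by bud31Δ at 0.65 ± 0.12.

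The highest mean of a gained strain was that of snf1Δ, without the kinase that adjusts the cell to low glucose, with 1.40, 0.53, 0.86 and 1.57 (mean 1.09, SE 0.19, limma adjusted p = 0.0995). The call ended when replicate 1, 3 or 4 was left out. The snf4Δ strain, without the activating subunit of the same kinase, had 0.13, 0.06, 0.70 and 0.09 (mean 0.25, SE 0.13, limma adjusted p = 0.607). Among the 18 other strains of the HAP complex, Snf1 and retrograde regulators, which set the use of respiratory fuels, none was called, with hap3Δ at −0.62 ± 0.16, rtg2Δ at −0.38 ± 0.10 and reg1Δ, of the phosphatase that opposes Snf1, at 0.32 ± 0.08. Mediator links transcription factors to RNA polymerase II. Of its 14 strains, 12 had means above 0 (median 0.33), and srb8Δ of the kinase module was gained (0 to 2 strains of the list with 1 array left out) with 0.64, 0.33, 0.90 and 0.52 (mean 0.60, SE 0.11, limma adjusted p = 0.103). Of the same module, ssn3Δ and ssn2Δ had means of 0.51 and 0.44, not past the threshold. The rpb9Δ strain, without a subunit of the polymerase itself, was gained at 0.71 ± 0.15.

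Elongator and its helpers modify the wobble uridine of cytosolic tRNAs. When both tags were averaged, these 15 strains had the highest median of the 70 lists, 0.38. Means were above 0 in 14 of them, and 10 were above 0 at an unadjusted p under 0.05. Only elp6Δ was gained (0.31, 0.34, 0.67 and 0.45, mean 0.44, SE 0.09, limma adjusted p = 0.127). Between 0 and 2 of the 15 were gained with 1 array left out. List medians on replicates 1 to 4 were 0.07, 0.27, 0.55 and 0.40. On replicate 1, other lists were higher, such as the small subunit of the cytosolic ribosome (0.15). By tag, the Elongator list had a median of 0.36 with the first and 0.33 with the second, on which Mediator (0.44) was higher. The slm3Δ strain, which lacks the thiolation of the same base in mitochondrial tRNA, lay on the other side of 0, as given above.

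Membrane trafficking, glycosylation and lipid synthesis supplied further gained strains. The arf1Δ strain, without a GTPase that forms Golgi coats, had 0.50, 0.63, 0.68 and 0.76 (mean 0.65, SE 0.08, limma adjusted p = 0.0761), and its homologue ARF2 gave a mean of 0.12 ± 0.09 in its own deletion. The snc2Δ strain, without a fusion protein of secretory vesicles, had 0.67, 0.39, 0.67 and 0.55 (mean 0.57, SE 0.09, limma adjusted p = 0.0809), and snc1Δ, of its homologue, a mean of −0.10 ± 0.10. In Golgi tethering and glycosylation, 2 of 37 strains were gained (0 to 1 with 1 array left out; median 0.13), ost3Δ of the oligosaccharyltransferase with 0.37, 0.49, 0.44 and 0.66 (mean 0.49, SE 0.09, limma adjusted p = 0.0995) and mnn11Δ of a mannosyltransferase at 0.66 ± 0.12. Both fatty acid elongases that make very long chains were gained, elo2Δ with 0.47, 0.53, 0.78 and 0.72 (mean 0.62, SE 0.09, limma adjusted p = 0.0782) and elo3Δ at 0.46 ± 0.09. The gas1Δ strain, without a glucan remodelling enzyme of the cell wall, had a mean of 0.74 ± 0.14, tpo1Δ, without a polyamine exporter, 0.62 ± 0.13, cin8Δ, of a spindle motor, 0.49 ± 0.11 and spt21Δ, of a regulator of histone genes, 0.57 ± 0.10. The last gained strains with a name were ygr272cΔ at 0.92 ± 0.19 and kel1Δ, of a protein of cell fusion and shape, at 0.36 ± 0.08, and the 6 without a symbol ranged from 0.46 to 0.75.

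Control lists show how deletions of genes not needed by growing haploid cells behaved. Of 61 strains without genes of meiosis and sporulation, none was called (median −0.03, range −0.75 to 0.42), and at an unadjusted p under 0.05, 2 were below 0 and 2 above. Of 33 strains without genes of mating, 1 was gained, ram1Δ (0.47 ± 0.09), which lacks a protein farnesyltransferase that also acts outside mating. The his3Δ and met17Δ strains, whose genes the parent of such collections already lacks, both had means of 0.00. No strain was called among 83 of amino acid synthesis, 33 of autophagy, 35 of peroxisomes and 20 of the HOG pathway, with medians between −0.07 and 0.00. Nor was any called among 17 of the pentose phosphate pathway and NADPH, with pos5Δ, which lacks the mitochondrial NADH kinase, lowest at −0.44 ± 0.10 (limma adjusted p = 0.159).

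Around the threshold, strains just inside and just outside it had overlapping means. The lost strains nearest to it were sxm1Δ and irc19Δ at −0.42 ± 0.09 and −0.84 ± 0.18, with cyt2Δ and ydr114cΔ at −0.51 ± 0.11 and −0.71 ± 0.16 just beyond. On the gained side these were rad2Δ and dbp7Δ, as against rps28bΔ at 0.34 ± 0.08 and rpl20aΔ at 0.65 ± 0.15. The open reading frame YDR114C overlaps that of MRX14, a mitochondrial ribosomal protein, by 52 bases in the RefSeq annotation, and mrx14Δ was lost at −0.81 ± 0.16. No other called strain shares bases with another measured named gene. Among the measured neighbours of lost strains along the chromosomes, the median was −0.04 and 6 of 150 were lost (4.0%). These 6 form pairs of adjacent lost strains, each pair counted from both sides. The share lost was 3.77% among the neighbours of gained strains (2 of 53) and 2.45% among those of strains that were not called.

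The adapted arrays give these strains a readout from other cultures. There, the pool that was pretreated with 0.1 mM before the high dose carried Cy5 and the pool given the high dose alone Cy3, so that a value above 0 marks a strain that was commoner with pretreatment. The high dose alone is the numerator of the acute ratio and the denominator of the adapted one, in separate cultures. Of the 66 lost strains in mitochondrial lists, 32 had adapted means above 0 and 34 below, with a median of −0.01, near that of all strains (−0.01, 45.5% above 0). Of the 57 lost strains in no mitochondrial list, 41 had adapted means above 0, with a median of 0.21. All 43 gained strains had adapted means below 0, from −0.92 to −0.07 with a median of −0.39, where 54.5% of all strains were below 0. No test of these differences between groups was made.

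Within the lost strains, the adapted means differed in range from function to function. The 6 lost strains of the Rim101 pathway and ESCRT had adapted means from 0.46 to 0.63, the 3 of the vacuolar ATPase from 0.30 to 0.58 and the 4 of homologous recombination from 0.22 to 0.44. The 31 lost strains of the mitochondrial ribosome, tRNA charging, translation factors and activators ranged from −0.21 to 0.13. Those of mitochondrial DNA, transcription and RNA ranged from −0.06 to 0.52, with 4 of 6 above 0, and those of the respiratory chain, ATP synthase and coenzyme Q from −0.21 to 0.46, so that their ranges overlapped those of the pathways outside mitochondria. In yap1Δ and skn7Δ the adapted means were −0.40 and −0.51, below 0 as in the acute comparison, whereas yjr124cΔ had 1.34, the highest of all 4611 strains. The SDs of yap1Δ, skn7Δ and yjr124cΔ over the 6 adapted arrays were 0.36, 0.20 and 0.27. Among gained strains, rpl7aΔ had −0.62, uaf30Δ −0.34 and snf1Δ −0.50. The adapted values of rpl7aΔ were widely spread, with an SD of 0.67 and 5 of 6 arrays below 0.

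**Figure D4:**
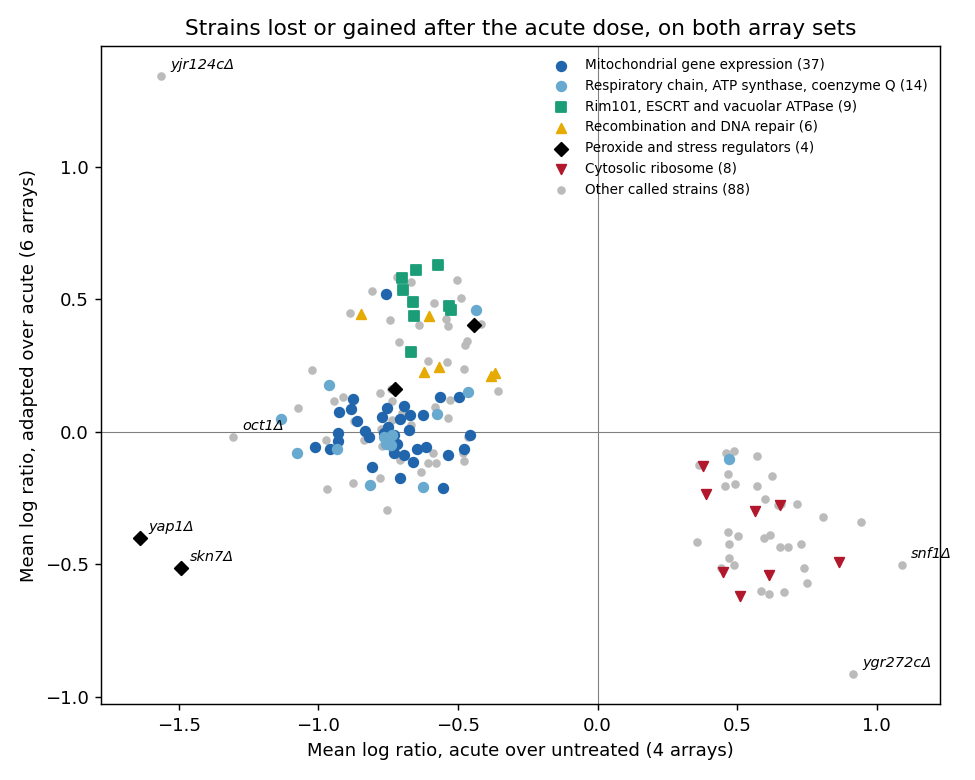
Mean log ratio of acute dose over untreated (horizontal axis, 4 arrays) against that of adapted over acute (vertical axis, 6 arrays) for the 166 called strains, coloured by function. Lost strains of mitochondrial gene expression and the respiratory chain lie mostly near 0 on the vertical axis, those of Rim101, ESCRT and the vacuolar ATPase lie above it at 0.30 to 0.63, and all 43 gained strains lie below it.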

How the data were processed

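The table analysed holds a log ratio for each spot of 4 acute and 6 adapted arrays. The authors applied median and loess corrections before these ratios, read here as natural log values, were deposited, and no source used here gives the base. No spot intensities were used, so the brightness behind a ratio is unknown, and precision is limited by how few arrays there are. Of 22575 spots, 16850 had values on all arrays. Replicate spots of the first tag set carried the opposite sign up to spot 5375 (3475 spots) and the same value from spot 5409 (350 spots; tolerance 1e-09), so main spots above 5400 were turned to read Cy5 over Cy3, and 20 strains lie between the checked runs. Replicate spots repeated the values of the main spots apart from the sign and served only to check it. Values of the main spots were averaged over the tags where both were measured, giving 4611 strains. Medians of the deposited columns lay between −0.0171 and −0.0106.

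Acute arrays were quantile normalized and each strain's mean was tested against 0 with limma's moderated test (limma 3.58.1, R 4.3.3; two-sided, p threshold 0.005, Benjamini-Hochberg adjustment over all strains), after the study's own threshold. Single-tag means precede quantile normalization. Per the study's methods, each array came from its own culture. The code was tested on simulated data. Other steps used Python 3.11.15, pandas 2.3.3, numpy 2.4.6 and matplotlib 3.10.9. Names and neighbouring genes came from RefSeq (assembly R64).

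The 70 gene lists hold 1607 genes, of which 1444 were measured and 163 were not, and 5 lie in several lists. Members and lists were chosen with earlier results of these data known. Strains named are the 20 lost and 12 gained of lowest p, up to 4 called members of each list or else its 2 of lowest p, YAP1, SKN7, MGA2 and ROX1, the 2 strains on each side of the threshold in each direction, and those of overlapping open reading frames. Any other strain was named after its values were seen. Alternatives changed the normalization, tags, strains, estimate of spread, array weights, threshold and arrays.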

Additional observations from a re-analysis of the deposited data

Results flagged for a closer look

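In 6 of 174 named strains, 1 of the 4 arrays stood far from the other 3, by a gap past Dixon's critical value for 4 samples. Chance gives about 1 such strain in 20, and the cause was not tested in any.

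Called strains were 3 of the 6. For mst1Δ, without the mitochondrial threonyl-tRNA synthetase, replicate 4 was at −0.64, with the others between −1.08 and −1.05. For vph2Δ, of vacuolar ATPase assembly, replicate 3 was at −0.18 and the others between −0.88 and −0.80. For rps21bΔ, of the cytosolic ribosome, replicate 2 was at 0.48 and the others between 0.34 and 0.36.

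The other strains were not past the threshold. In sps1Δ, of a sporulation kinase, replicate 4 was at −0.11 and the others between −0.9999 and −0.91. In grx6Δ, of a glutaredoxin, replicate 3 was at 0.28 and the others between −0.56 and −0.48. In gpp1Δ, of a glycerol phosphatase, replicate 1 was at −0.031 and the others between −0.28 and −0.24.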

How the results depend on the processing

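The counts of lost and gained strains were 123 and 43. They stayed within 1.5 times of these without quantile normalization (129 and 41), with median centring (125 and 44), with strains of both tags (121 and 42), with strains that have a symbol (118 and 37), with the second tag alone (92 and 41, of which only 69 and 19 were among the 123 and 43) and with array weights (127 and 60). The first tag alone gave 56 and 20, of which 37 and 11 were among the 123 and 43, a spread shared by all strains 183 and 81, and no moderation of the spread 49 and 21. With an adjusted p under 0.05 the counts were 3 and 0 (an unadjusted p under 0.05 held for 319 strains below 0 and 265 above it, and no other tool was run). Leaving out 1 array gave 66 to 86 lost and 13 to 42 gained strains, lowest without replicate 4. Chosen after seeing the data, leaving out the first tag of the strains in the sign gap gave 124 and 43. Asking both tags for the same sign, also chosen then, gave 120 and 42. It dropped only strains read by 1 tag, since all called strains with both tags already had means of the same sign. Causes of these shifts were not tested.

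Of 115 named called strains, 13 were past the p threshold of 0.005 under every alternative fit computed for them, and 0 changed sign under any. Every called strain had 1 sign on all 4 arrays, and both tags, where measured, had means of the same sign. A change of sign was thus made unlikely by the calls themselves. The 13 were YAP1, YJR124C, OCT1, QCR7, SKN7, COQ3, RSM19, CIT1, YJL206C, MRPL20, RAD5, TEF4 and STP22. YAP1, read by 1 tag, had 12 of the 14 fits. An adjusted p under 0.05 was not among these fits, and of the 13 only YAP1, YJR124C and OCT1 met it. Of the 115 calls, 75 ended with the first tag alone, 46 with the second, 73 without moderation and 48 to 62 without 1 array. No paired analysis was possible because the 4 arrays form a single group tested against 0, each array being itself the ratio of a pair of portions. With 4 arrays and no dye swap, modest changes were often missed, and a strain that misses the threshold is not shown to be unaffected.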
